A study of Mus musculus with 32 samples.

Results

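The expression, damage and repair of 8 genes that are widely used as readouts of the Hippo pathway, Ccn1, Ccn2, Ankrd1, Amotl2, Ajuba, Lats2, Tnfrsf12a and Adamts1, were followed in 4 organs of mice given cisplatin. The 8 genes were chosen by name from the list of known YAP targets, not by a cut on a measured value, but with earlier results of these data known. They are 8 of the 25058 genes present in the files of all 3 assays, and all 8 were found with their current symbols. Cisplatin is a platinum drug that crosslinks neighbouring guanines (GG), and the crosslinks are removed by nucleotide excision repair. Damage-seq maps the crosslinks that are present, XR-seq maps the short excised fragments of ongoing repair, and RNA-seq measures transcripts.

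The animals were female C57BL/6J mice, 6 to 7 months old, with no engineered allele. Treated mice received 10 mg/kg cisplatin by intraperitoneal injection at zeitgeber time 1 h, the control mice received saline (154 mM), and kidney, liver, lung and spleen were taken at zeitgeber time 5 h. The injection and the collection were therefore 4 h apart by the protocol, whereas the sample labels give 2 h. Each organ had 2 control and 2 cisplatin RNA-seq libraries, 2 cisplatin XR-seq libraries and 2 cisplatin Damage-seq libraries. The XR-seq and Damage-seq libraries analysed here all came from treated mice, so the background of those assays is not known from these samples. The samples are whole organs: fewer cells of a type and less RNA per cell cannot be told apart. The methods call the replicates biological ones, the labels tie no library to an animal, and the p-values measure the spread between these libraries.

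YAP and its relative TAZ (encoded by Yap1 and Wwtr1) are transcriptional coactivators that bind the TEAD factors on DNA. The Hippo kinases MST1/2 (Stk4, Stk3) activate the kinases LATS1/2, which phosphorylate YAP and TAZ and so keep them out of the nucleus. Some targets of YAP act outside the cell, and others, such as Lats2, Amotl2 and Ajuba, encode regulators of the pathway itself. CCN1 and CCN2 are secreted matricellular proteins that bind integrins and are known for their part in wound repair and fibrosis. Tnfrsf12a encodes Fn14, the receptor of the cytokine TWEAK, and Adamts1 encodes a secreted metalloprotease that cleaves proteoglycans. Ankrd1 encodes an ankyrin repeat protein of striated muscle and of stressed cells that is found in sarcomeres and in the nucleus. LATS2 is the kinase that phosphorylates YAP, angiomotin-like 2 (Amotl2) holds YAP at cell junctions and the LIM protein AJUBA binds LATS kinases. Several of these genes also respond to factors other than YAP.

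The windows before the transcription starts are shown because the letters bound by TEAD factors can be looked for in them. The motif searched was GGAATG. On the opposite strand it reads CATTCC, and both strands were searched. A window of 250 bases before an annotated start was available from RefSeq (GRCm38.p6) for 7 of the 8 genes, and Ccn2 had no entry. The windows of Amotl2, Ankrd1 and Tnfrsf12a and both windows of Lats2 stand before starts that lie inside the gene bounds given below. None of these starts is the outermost one. The windows of Amotl2, Ankrd1 and Lats2 lie wholly within the bounds, and that of Tnfrsf12a in part. Printed are 3 windows with a match and those of Tnfrsf12a and Adamts1, 2 of the 3 genes that rose in kidney below. Letters run 5′ to 3′ along the gene's own strand, capitals mark the motif on either strand, and the last base stands at position -1.
Ccn1 (chr3:145649986-145650235, minus strand): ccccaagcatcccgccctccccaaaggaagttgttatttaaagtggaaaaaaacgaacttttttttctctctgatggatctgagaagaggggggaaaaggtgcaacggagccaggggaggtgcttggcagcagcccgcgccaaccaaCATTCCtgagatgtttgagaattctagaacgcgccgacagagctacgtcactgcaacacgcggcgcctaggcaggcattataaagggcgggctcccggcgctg
Ankrd1 (chr19:36119845-36120094, minus strand): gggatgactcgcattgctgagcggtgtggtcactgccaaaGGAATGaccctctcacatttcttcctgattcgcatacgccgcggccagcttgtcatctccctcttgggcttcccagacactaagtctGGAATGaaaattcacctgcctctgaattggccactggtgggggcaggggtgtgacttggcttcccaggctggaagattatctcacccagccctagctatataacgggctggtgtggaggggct
Ajuba (chr14:54577662-54577911, minus strand): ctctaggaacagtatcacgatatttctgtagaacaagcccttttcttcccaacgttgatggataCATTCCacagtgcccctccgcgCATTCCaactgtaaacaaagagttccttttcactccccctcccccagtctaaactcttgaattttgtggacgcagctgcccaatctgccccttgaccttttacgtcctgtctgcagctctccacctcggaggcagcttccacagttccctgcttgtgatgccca
Tnfrsf12a (chr17:23677450-23677699, minus strand): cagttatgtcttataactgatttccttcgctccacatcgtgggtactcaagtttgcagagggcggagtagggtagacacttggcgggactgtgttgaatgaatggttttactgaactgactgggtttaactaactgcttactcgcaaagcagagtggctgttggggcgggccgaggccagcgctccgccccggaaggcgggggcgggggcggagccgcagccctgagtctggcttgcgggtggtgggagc
Adamts1 (chr16:85803114-85803363, minus strand): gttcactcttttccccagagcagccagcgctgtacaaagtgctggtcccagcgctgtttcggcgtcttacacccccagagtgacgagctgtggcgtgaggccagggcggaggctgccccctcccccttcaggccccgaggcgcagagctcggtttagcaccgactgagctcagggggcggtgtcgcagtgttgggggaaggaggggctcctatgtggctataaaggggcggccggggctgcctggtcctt
The motif stood 1 time in the window of Ccn1, starting at position -103. It stood 2 times in Ankrd1, at -210 and -123, 2 times in Ajuba, at -186 and -164, and 1 time in Amotl2, at -65 (chr9:102717554-102717803, plus strand). The windows of Tnfrsf12a and Adamts1 and both windows listed for Lats2 held no match. Of all 32851 RefSeq windows of this length, 12.6% held at least 1 match, against 4 of the 7 genes here. The share is counted per window, and Lats2 had 2 windows. The CArG box bound by serum response factor and the AP-1 motif TGANTCA, searched on both strands, stood in none of the 7 genes' windows and in 1.47% and 6.75% of all windows. A match is a run of letters and not a bound site, and the absence of a match concerns only this window.

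In the files' build (mm10), Ccn1 (chr3:145646976-145649981, minus strand) and Ccn2 (chr10:24595442-24598683, plus strand) are short genes of 3006 and 3242 bases, and Tnfrsf12a (chr17:23675445-23677468, minus strand) is shorter still, with 2024 bases. Adamts1 (chr16:85793827-85803113) and Ankrd1 (chr19:36111961-36120099) lie on the minus strand and are 9287 and 8139 bases long. Ajuba (chr14:54567472-54577558, minus strand), Amotl2 (chr9:102716672-102733418, plus strand) and Lats2 (chr14:57689662-57758388, minus strand) are 10087, 16747 and 68727 bases long. In the GENCODE M21 annotation, Ccn2 is overlapped by an antisense transcript, Gm15270, and Lats2 by a gene on its own strand, Gm49361, and by Gm26440 and Gm20430 on the other strand. None of these 4 is counted in the files, the strand setting of the RNA counting was not given in the sources used here, and reads from the overlapping genes cannot be told apart there.

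The RNA-seq libraries held 15619474 to 162270280 reads on genes, the XR-seq libraries 10658675 to 59779770 and the Damage-seq libraries 1571167 to 6441367. The control pairs of lung and of spleen differed far less than the other pairs, though by more than counting noise. Their dispersion indices were 2.75 and 2.99, where 1 is pure counting noise and the other pairs had 39.3 to 350. The limit for summing was 3, and spleen lay close to it. Both the lung and the spleen control pair were summed and counted as 1 sample each, and values with each library as a replicate are given beside. A note with the series says that the control and cisplatin labels of lung and spleen RNA had been exchanged and were corrected. As a check of the labels, Cdkn1a, the p53 target that encodes the cell-cycle inhibitor p21, was higher in the cisplatin libraries of all 4 organs, with a log2 fold change of 4.33 for kidney (edgeR adjusted p = 0.0072), of 3.07 for liver (0.261), of 1.90 for lung (0.0196) and of 1.496 for spleen (0.366). The 2 liver cisplatin libraries stood apart from each other for several genes below.

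The RNA response addressed which of the 8 genes changed with cisplatin in each organ. In kidney Tnfrsf12a, Ccn1 and Adamts1 rose and none of the 8 fell. In liver, lung and spleen none of the 8 passed, although the cisplatin libraries lay above the controls for Tnfrsf12a, Ccn2 and Adamts1 in all 4 organs. The log2 fold changes of Amotl2 and Lats2 lay within 0.25 of 0 in every organ, and neither was called. A gene was called when its change exceeded 0.4 on the log2 scale with an adjusted p under 0.05 (edgeR quasi-likelihood fit, glmTreat, Benjamini-Hochberg over all genes tested). By this rule 2.41% of all tested genes were called up in kidney and 2.65% down, against 3 and 0 of the 8. Called up were 0% of genes for liver, 0.126% for lung and 0.164% for spleen.

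**Figure D1:**
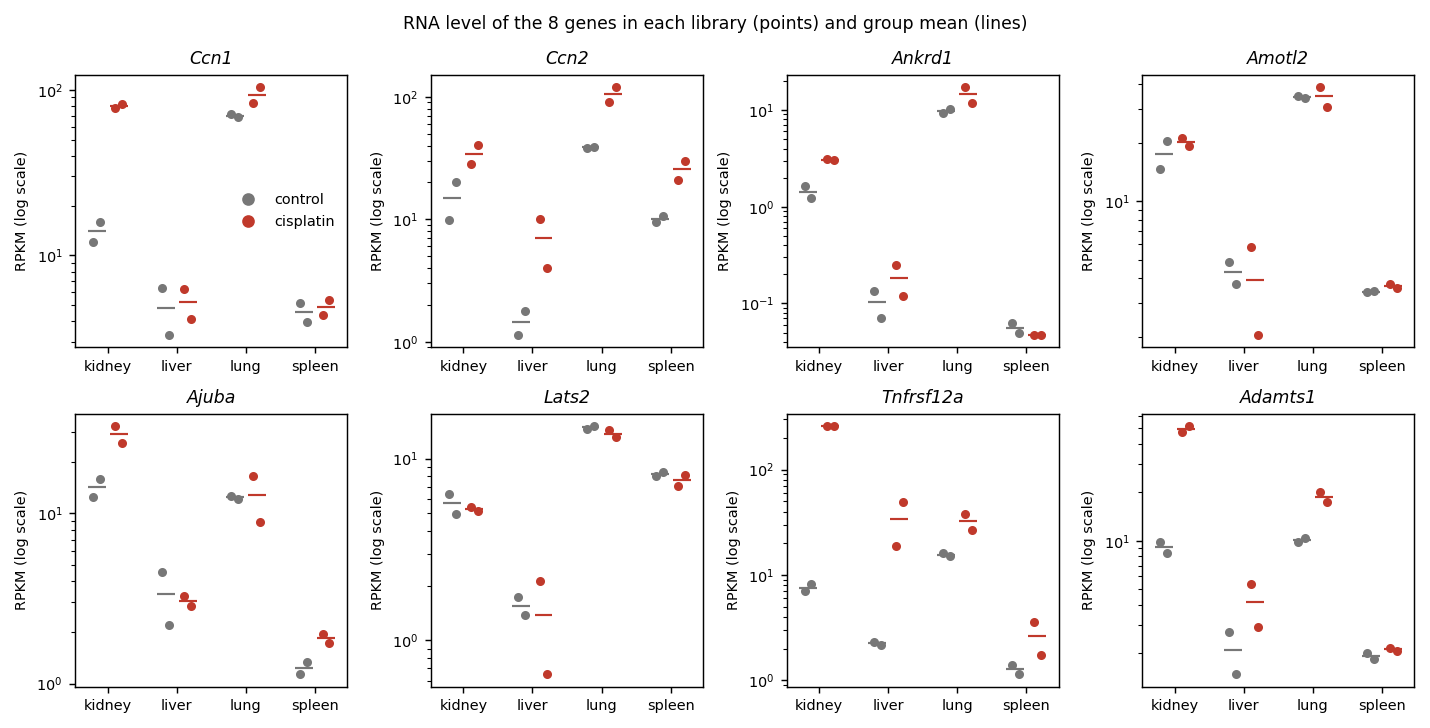
RNA level of each of the 8 genes in RPKM (reads on the gene scaled to its exon length and to the library's reads on genes, log axis), by organ, with 1 point per library (grey control, red cisplatin) and a line at the mean of the 2 libraries. Tnfrsf12a in kidney moved from 6.99 and 8.19 to 258 and 257, the widest gap between groups in the plot, whereas the groups of Amotl2 overlapped in kidney, liver and lung.

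Tnfrsf12a had the largest response of the 8 in kidney. Its level was 6.99 and 8.19 RPKM in the control kidneys and 258 and 257 RPKM in the cisplatin kidneys, so the groups were far apart and the treated pair nearly equal. The log2 fold change was 5.14 ± 0.22 (SE, 2 against 2 libraries; adjusted p = 0.0014). In liver it was 2.31 and 2.19 RPKM in controls and 18.8 and 49.6 RPKM after cisplatin. Both treated livers were above both controls, but the treated livers were far apart from each other, and the log2 fold change of 4.06 ± 0.62 had an adjusted p of 0.0988. DESeq2 called this change, with the same direction, and so did edgeR without any one of the 4 liver libraries, at log2 fold changes of 2.83 to 4.69. In such fits the library left alone in its group is assumed to vary like the pair of the other group. In lung the levels were 16.05 and 15.001 RPKM in controls and 37.7 and 26.8 RPKM after cisplatin (log2 fold change 1.06 ± 0.24, adjusted p = 0.146). In spleen they were 1.40 and 1.14 RPKM in controls and 3.545 and 1.74 RPKM after cisplatin (log2 fold change 1.14 ± 0.55, adjusted p = 1.0). Among the controls lung had the highest level, followed by kidney, liver and spleen, and the libraries of neighbouring organs in that order did not overlap. After cisplatin kidney stood above all other organs, and liver and lung overlapped. RPKM is scaled by the library's reads alone. The fit over all organs also used scaling factors (TMM), which were 0.518 to 0.720 in liver and 1.26 to 1.36 in lung and spleen. Orders and overlaps of organs given for RNA levels therefore hold for RPKM only.

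Ccn1 rose in kidney and was nearly level in liver and spleen. Its kidney levels were 12.1 and 15.9 RPKM in controls and 78.2 and 81.9 RPKM after cisplatin, a log2 fold change of 2.56 ± 0.22 (adjusted p = 0.0069). The treated kidneys thereby reached the level of the lung, which had 71.3 and 68.7 RPKM in controls and 83.1 and 104 RPKM after cisplatin. The lung groups did not overlap, but the log2 fold change was only 0.42 ± 0.20 (adjusted p = 0.811). In liver the controls had 6.38 and 3.31 RPKM and the treated livers 6.30 and 4.16 RPKM, and in spleen 5.13 and 3.98 RPKM stood against 4.36 and 5.35 RPKM. The groups overlapped in both of these organs, and there the log2 fold changes were 0.15 ± 0.38 and 0.19 ± 0.25. In controls the order by RPKM was lung, kidney, then liver and spleen, which overlapped on that scale.

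Ccn2 was higher in both cisplatin libraries than in both controls in every organ, but no single organ passed the edgeR test. In kidney the controls had 9.86 and 20.04 RPKM and the treated kidneys 28.0 and 40.6 RPKM, and the control libraries were far apart (log2 fold change 1.24 ± 0.40, adjusted p = 0.192). Without the second kidney control library the log2 fold change was 1.93 (adjusted p = 0.000305), and without the first it was 0.78 (adjusted p = 0.128). Either value rests on a single control library. In liver the levels were 1.14 and 1.78 RPKM in controls and 10.1 and 3.99 RPKM after cisplatin (log2 fold change 2.20 ± 0.49, adjusted p = 0.197), and the change was called without either cisplatin liver (1.65 and 2.52, adjusted p = 0.0029 and 0.000209). In lung they were 38.4 and 39.1 RPKM in controls and 90.9 and 120 RPKM after cisplatin (log2 fold change 1.43 ± 0.23). The adjusted p in lung was 0.0533 with the control pair counted once and 0.0085 with each library as a replicate. In spleen the levels were 9.52 and 10.6 RPKM in controls and 20.9 and 30.1 RPKM after cisplatin (log2 fold change 1.33 ± 0.25, adjusted p = 0.693). The 4 log2 fold changes of Ccn2 thus ran from 1.24 to 2.20, and a test of their difference between organs gave an adjusted p of 0.977. Lung had the highest control level, and kidney and spleen overlapped above liver.

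Adamts1 rose in kidney, with 9.84 and 8.38 RPKM in controls and 47.5 and 51.5 RPKM after cisplatin (log2 fold change 2.51 ± 0.17, adjusted p = 0.0035). In lung it stood at 9.78 and 10.4 RPKM in controls and at 20.1 and 17.5 RPKM after cisplatin. The lung groups did not overlap, and the log2 fold change of 0.87 ± 0.18 had an adjusted p of 0.143, or 0.0119 with each library as a replicate. In liver the controls had 2.71 and 1.48 RPKM and the treated livers 5.41 and 2.90 RPKM (log2 fold change 1.01 ± 0.38, adjusted p = 0.553). In spleen the 4 libraries lay between 1.85 and 2.16 RPKM. The control and cisplatin groups did not overlap in liver and spleen either. By RPKM control lung and control kidney overlapped, and both were above liver and spleen, which overlapped as well on that scale.

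Ankrd1 was a low-level transcript outside the lung. In lung it had 9.31 and 10.2 RPKM in controls and 17.3 and 11.9 RPKM after cisplatin (log2 fold change 0.53 ± 0.25, adjusted p = 0.689). In kidney it had 1.63 and 1.23 RPKM in controls and 3.13 and 3.03 RPKM after cisplatin, groups that did not overlap, with a log2 fold change of 1.18 ± 0.26 (adjusted p = 0.0882, or 0.0425 without the first control library). Liver libraries held 10 to 21 reads of Ankrd1 and spleen libraries 5 to 12, too few to read a response.

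Ajuba, Amotl2 and Lats2, which encode regulators of the pathway, were called in no organ. Ajuba had 12.4 and 15.97 RPKM in control kidneys and 32.4 and 25.8 RPKM after cisplatin (log2 fold change 1.08 ± 0.22, adjusted p = 0.074, or 0.0034 without the second control library), and its lung groups overlapped, at 12.7 and 12.2 against 16.6 and 8.92 RPKM. In spleen it had 1.13 and 1.34 RPKM in controls and 1.97 and 1.72 RPKM after cisplatin, groups that did not overlap (log2 fold change 0.56 ± 0.29, adjusted p = 1.0). Amotl2 was highest in lung, with 34.8 and 34.0 RPKM in controls and 38.8 and 30.6 RPKM after cisplatin. Its log2 fold change was 0.25 ± 0.23 in kidney and 0.00 ± 0.19 in lung, where the sign changed with the settings. Lats2 was also highest in lung, with 14.6 and 15.1 RPKM in controls and 14.3 and 13.2 RPKM after cisplatin. Its 4 log2 fold changes lay between -0.22 and -0.04, each within 1 SE of 0. In liver Amotl2 and Lats2 were 5.80 and 2.11 RPKM in the cisplatin library of replicate 1 and 2.04 and 0.649 RPKM in that of replicate 2, wider than the gap between the groups.

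The kidney calls of Tnfrsf12a, Ccn1 and Adamts1 held without any one of the 4 kidney libraries. Both cisplatin libraries lay above both controls for 6 of the 8 genes in kidney, 3 in liver and 5 each in spleen and lung. Over all genes with at least 20 reads in the organ this held for 24.1% (kidney), 20.1% (liver), 34.1% (lung) and 28.7% (spleen). Both controls lay above both cisplatin libraries for Lats2 in lung and for Ankrd1, with few reads, in spleen. The share of all genes in that direction is not given here. The median log2 fold change of the 8 genes was 1.21, 0.49, 0.47 and 0.19 in the order kidney, liver, lung and spleen, and that of all tested genes was -0.0029, 0.056, 0.015 and 0.017. With each library as a replicate, Ccn2, Adamts1 and Tnfrsf12a were called up in lung, where 1.56% of all genes were, and none of the 8 in spleen, where 0.227% were. DESeq2 called Tnfrsf12a, Ccn1 and Adamts1 up in kidney, where it called 1.94% of all genes up. For liver it called Tnfrsf12a and Ccn2 (0.138% of all genes), for lung Ccn2 (0.221%) and for spleen none of the 8 (0.242%). At an unadjusted p under 0.05 stood 6 of the 8 in kidney, 3 in lung, 2 in liver and 1 in spleen.

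**Figure D2:**
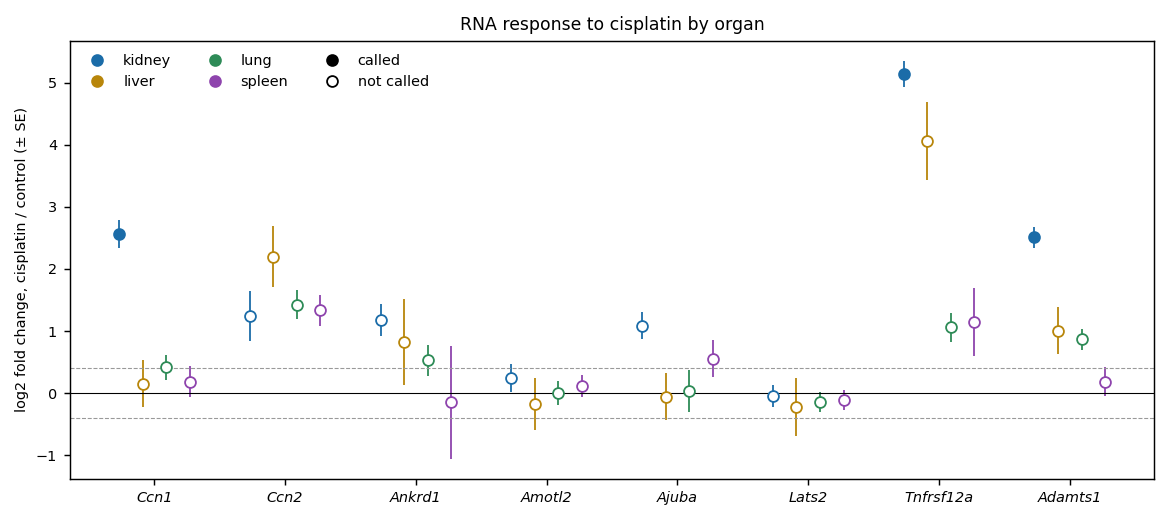
Log2 fold change of cisplatin over control with its standard error for each of the 8 genes and each organ from edgeR. Filled points were called, dashed lines mark ±0.4 and the solid line 0. The 3 filled points are Ccn1, Tnfrsf12a and Adamts1 in kidney, and the points of Amotl2 and Lats2 lie around 0 in every organ.

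Markers of other cell types moved in some of the same libraries. In lung the summed level of 5 B and T cell markers was 255 and 262 CPM (counts scaled to the library's reads on genes) in controls and 75.5 and 56.6 CPM after cisplatin, and all 5 fell. The 3 markers of high endothelial venules, vessels of lymphoid tissue, summed to 171 and 175 CPM in control lungs and to 13.8 and 9.6 CPM after cisplatin, with 1 called. The markers of cardiac muscle, the tissue in which Ankrd1 is most abundant, summed to 159 and 156 CPM in control lungs and to 355 and 250 CPM after cisplatin, with 0 of 5 called by edgeR, 1 by DESeq2 and none of them at 0. The part of these in the lung values of Ankrd1, Ccn2, Adamts1 and Tnfrsf12a was not tested. In spleen 5 of 5 pancreatic acinar markers rose, from 0.3 CPM in each control to 1506 and 1063 CPM after cisplatin. The fibroblast markers in spleen summed to 349 and 348 CPM in controls and to 481 and 411 CPM after cisplatin, and the smooth muscle markers to 195 and 189 CPM and to 274 and 219 CPM. Neither sum overlapped between the groups, and none of their 5 genes each was called. Among the fibroblast markers, Dcn had 64.4 and 66.3 CPM in control spleens and 138 and 126 CPM after cisplatin. Pdgfra was also higher without overlap, whereas Col1a1, Col1a2 and Lum overlapped between the groups. The part of these lists in the spleen values of Ccn2 and the other genes was not tested. In liver the endothelial markers summed to 207 and 180 CPM in controls and to 233 and 83.2 CPM after cisplatin, and the low value was that of replicate 2, in which Amotl2 and Lats2 were low, but its part was not tested. In kidney the cardiac markers were at 1.7 and 2.1 CPM in controls and 6.0 and 4.2 CPM after cisplatin. Of the 3 tested there, Tnnt2 alone was called up. It had 0.52 and 0.56 CPM in controls and 4.29 and 2.27 CPM after cisplatin, so most of that sum was this gene. Myh6 overlapped between the groups, and all these levels are low. The fibroblast markers, 69.3 and 139 CPM in control kidneys and 97.8 and 167 CPM after cisplatin, overlapped between groups, and none was called. By edgeR the endothelial, smooth muscle, mesothelial, skeletal muscle, hepatocyte, kidney tubule and lung epithelial markers were not called in any organ. DESeq2 called 1 hepatocyte marker in kidney and 1 in lung, 1 kidney tubule marker in lung, and 1 lung epithelial marker in liver and 1 in spleen. The 4 skeletal muscle markers tested in lung summed to 4.3 and 4.8 CPM in controls and to 100.2 and 5.9 CPM after cisplatin. In kidney the tubule markers summed to 14303 and 16688 CPM in controls and to 11261 and 12505 CPM after cisplatin, and the hepatocyte markers to 314 and 429 CPM and to 206 and 251 CPM. Both were lower in the treated kidneys without overlap, and their part in the kidney values was not tested. The other organs carried their own markers too: hepatocyte markers summed to 78536 to 136348 CPM in liver, lung epithelial markers to 67109 to 74954 CPM in lung and B and T cell markers to 1957.5 to 2188 CPM in spleen.

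Whether the response differed between organs was tested in 1 fit over all RNA-seq samples (14 after summing). No gene of the 8 passed the test over the 4 organs, in which 0.21% of all genes were called. The adjusted p was 0.0725 for Ccn1, 0.0818 for Adamts1 and 0.0994 for Tnfrsf12a, and it was 0.0059, 0.0059 and 0.0089 with each library as a replicate. Against the mean response of the other 3 organs, the kidney response was larger by 2.34 ± 0.34 for Ccn1 and by 1.86 ± 0.29 for Adamts1 on the log2 scale, with adjusted p of 0.0163 and 0.025, where 0.414% of all genes were called with a larger kidney response. Neither call held without any one of the 4 kidney libraries, or when libraries were scaled by their size alone. Leaving out each kidney library in turn gave 2.09 to 2.65 for Ccn1 (adjusted p = 0.0543 to 0.132) and 1.74 to 1.96 for Adamts1 (0.107 to 0.159). That of Adamts1 was also lost without either cisplatin lung library (adjusted p = 0.0637 and 0.0799). For Tnfrsf12a the kidney response was larger by 3.08 ± 0.62 (adjusted p = 0.0705). The other 3 organs were unlike for Tnfrsf12a, with a liver change of 4.06 against 1.06 in lung and 1.14 in spleen. On simulated data with changes of 2 on the log2 scale, the test between organs recovered 27.5% of the changed genes and the kidney test 86.5%, so a missed call between organs says little.

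The other genes of the pathway gave a mixed picture in kidney. Of 17 further genes of published YAP signatures 16 were tested in kidney. By edgeR 3 of them rose and none fell, against 2.41% and 2.65% of all genes, and the median log2 fold change was -0.18. The 3 were Gadd45a, which encodes a stress protein induced by DNA damage (log2 fold change 3.09 ± 0.18, adjusted p = 0.003), Fjx1, which encodes a secreted protein related to a Drosophila growth regulator (2.32 ± 0.22, adjusted p = 0.0088), and F3, tissue factor (1.38 ± 0.22, adjusted p = 0.035). DESeq2 called these 3 and also Nuak2, which was lower (-1.23 ± 0.22, edgeR adjusted p = 0.051, DESeq2 adjusted p = 0.0322). Fjx1, F3, Nuak2 and, in lung, Rbms3 were named after their values were seen. In lung 2 of 17 fell, Asap1 (-1.75 ± 0.16, adjusted p = 0.019) and Rbms3 (-1.09 ± 0.16, adjusted p = 0.0483), against 1.97% of all genes. In liver and spleen none of 15 and 16 was called by edgeR, while 3 and 2 had an unadjusted p under 0.05 and DESeq2 called 2 and 0.

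Of 28 Hippo pathway components, 1 rose and 6 fell in kidney by edgeR, where 2.41% of all genes rose and 2.65% fell, and DESeq2 called the same 7. The riser was Rassf1, a scaffold that binds the MST kinases (log2 fold change 2.56 ± 0.19, adjusted p = 0.0042), and the strongest fall was that of Tead1, a DNA-binding partner of YAP (-1.77 ± 0.18, adjusted p = 0.0125). The others that fell, named after their values were seen, encode the kinases Stk3 (-1.26), Stk4 (-1.25) and Taok3 (-1.32) and the scaffolds Wwc1 (-1.17) and Wwc2 (-1.04). Yap1 and Wwtr1, named here outside the rule, had log2 fold changes of -0.51 ± 0.15 and -0.50 ± 0.15 in kidney, and neither was called. In lung Stk3 fell (-1.37 ± 0.21, adjusted p = 0.0481), where 1.97% of all genes fell, and no other component was called. None of the 28 was called in liver or spleen by edgeR, where 7 and 1 had an unadjusted p under 0.05 and DESeq2 called 1 and 0. The median over the 28 was -0.11, -0.30, -0.15 and -0.10 in the order kidney, liver, lung and spleen.

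Ccn1, Ccn2 and Ankrd1 are also targets of serum response factor, so the 18 genes of the SRF and actin list were counted beside them. None was called by edgeR in any organ, 3, 1, 2 and 0 had an unadjusted p under 0.05 in kidney, liver, lung and spleen, and DESeq2 called 1 in kidney and 0 elsewhere. The relatives of the 8 genes, other CCN proteins, ADAMTS proteases and ankyrin repeat proteins, gave no call either among the 8, 7, 11 and 10 tested, with 4, 0, 2 and 1 at an unadjusted p under 0.05 and 0 by DESeq2.

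The genes whose RNA pattern over the 14 samples was most like Ccn1 were Spry1 (Pearson r = 0.965), Pofut2 (0.953), Bdkrb2 (0.947), Ndp (0.944) and Ankrd1 (0.942). Those most like Ccn2 were Cebpd (0.940), Flnc (0.938), Lrrc73 (0.935), Phlda3 (0.933) and Ephx3 (0.929). Those most like Tnfrsf12a were Fxr2 (0.981), Dph3 (0.964), Tcta (0.936), Cyth2 (0.932) and Bag5 (0.930). These values are the 5 highest of 19088 genes for log2 CPM across organs and treatments together, and the samples share organs.

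XR-seq addressed how repair was divided between the transcribed strand (TS), which the RNA polymerase reads, and the non-transcribed strand (NTS). Summed over the 2 libraries, all 8 genes had most of their repair reads on the TS in kidney, liver and lung, and 7 of 8 in spleen. Counted per GG site, the TS excess was called for 7 of the 8 genes in kidney and in lung, and for 6 in liver and in spleen (edgeR with a block per library, test against 0), where 58.3% (kidney), 52% (liver), 61% (lung) and 59.4% (spleen) of all 16502 genes were. The median log2 ratio of TS to NTS of the 8 genes was 3.24, 2.68, 3.53 and 2.95 and that of all genes 2.70, 2.11, 3.14 and 3.07 in kidney, liver, lung and spleen.

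Ccn1 had 776 and 935 TS reads and 0 and 34 NTS reads in the kidney libraries. The log2 ratio was 6.46 ± 1.43 in kidney (adjusted p = 0.0037), 3.45 ± 1.16 in liver, 4.68 ± 1.24 in lung and 2.56 ± 1.19 in spleen, and spleen, with 39 and 243 TS against 10 and 21 NTS reads, missed the threshold (adjusted p = 0.088). Ccn2 had 547 and 563 TS reads against 22 and 34 NTS reads in kidney, and its log2 ratio was 3.64 ± 0.72 there, 2.06 ± 0.70 in liver, 3.41 ± 0.71 in lung and 2.09 ± 0.70 in spleen. Both genes thus carried repair on the TS at few NTS reads. In liver the calls of Ccn1, Ccn2 and Adamts1 did not hold without either one of the 2 libraries, and neither did that of Ccn1 in lung nor that of Ccn2 in spleen.

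Tnfrsf12a had the lowest TS excess among the genes with many reads. In kidney it had 288 and 580 TS reads and 192 and 169 NTS reads, a log2 ratio of 1.71 ± 0.51 (adjusted p = 0.0163), and in liver 591 and 299 TS reads and 286 and 338 NTS reads, 0.96 ± 0.50 (adjusted p = 0.132). The second liver library had more NTS than TS reads. The ratio was 2.43 ± 0.51 in lung and 1.97 ± 0.51 in spleen. The gene with the largest RNA rise was therefore not the one with the largest strand difference of repair. In kidney, without the GG correction, the ratio was 1.18 with an adjusted p of 0.068, since the TS holds 170 and the NTS 245 GG sites.

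Of the genes that encode regulators, Lats2, the longest of the 8, had 3463 and 5891 TS reads against 396 and 783 NTS reads in kidney, and its log2 ratios were 3.02, 3.57, 3.89 and 3.34 in kidney, liver, lung and spleen, each with an SE of 0.21 to 0.22. Amotl2 had log2 ratios of 3.46, 3.29, 3.58 and 3.40 in the same order. Ajuba reached 5.20 ± 0.37 in liver, with 4085 and 3351 TS reads against 101 and 100 NTS reads, and had 2.93, 3.48 and 3.70 in kidney, lung and spleen. Adamts1 had 2.93, 2.08, 3.88 and 5.07, the last on 97 and 259 TS reads against 0 and 14 NTS reads. Ankrd1 had few reads, at most 90 on the TS of a library and 0 and 2 in spleen, and was called in no organ.

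**Figure D3:**
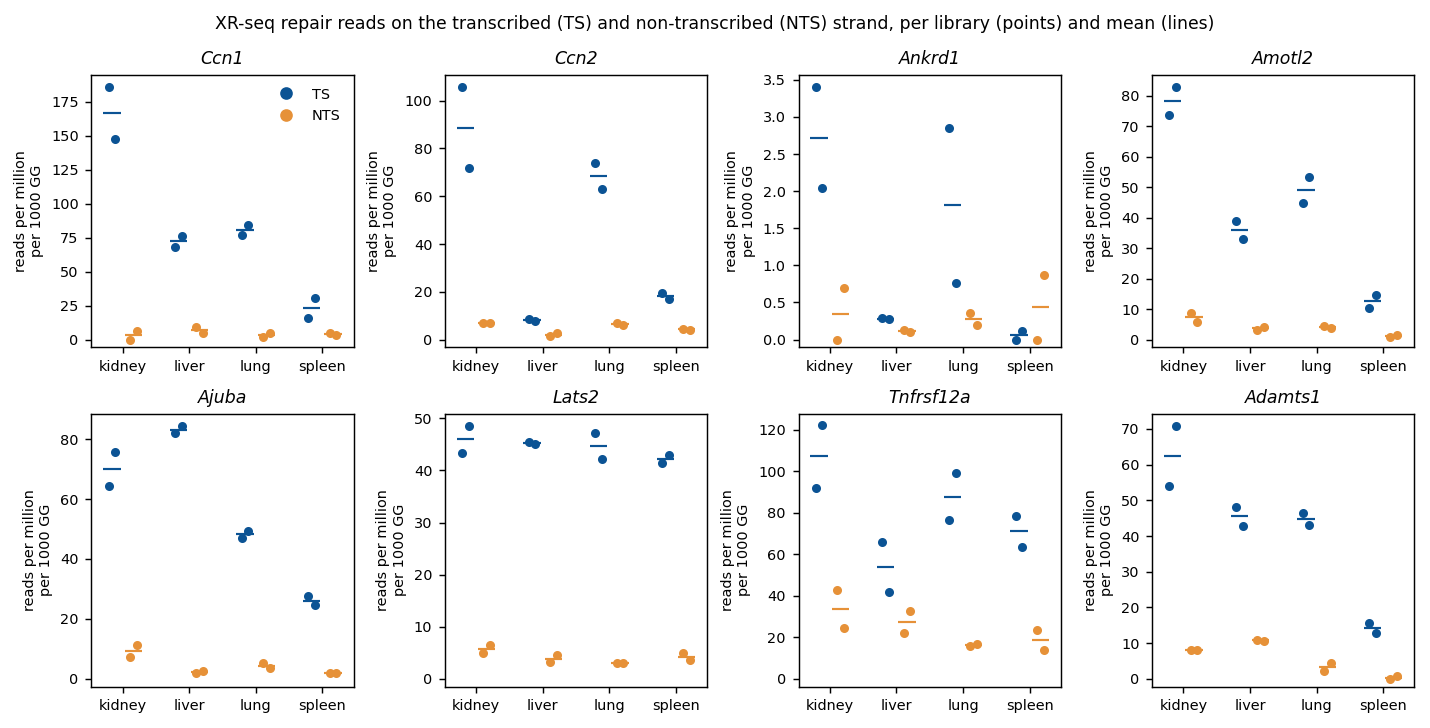
XR-seq reads, scaled to the library's reads on genes (RPM) and per 1000 GG sites, on the TS (blue) and NTS (orange) for the 8 genes by organ, with 1 point per library and a line at the mean of 2. In Ccn1 the TS stood at 186 and 148 in kidney and at 16.1 and 30.9 in spleen, whereas Lats2 lay at 41.3 to 48.6 in every library.

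The level of TS repair differed between organs for most of the 8 genes, as it did for most of all genes tested. In the test over the 4 organs, 6 of the 8 genes were called (edgeR), where 55.9% of all genes were. TS levels are given as RPM per 1000 GG sites. The tests used TMM scaling of the libraries, so their log2 differences and ranges are not those of the printed levels. Ccn1 had 186 and 148 in kidney, 76.6 and 84.1 in lung, 68.4 and 76.1 in liver and 16.1 and 30.9 in spleen, so kidney was above and spleen below both other organs without overlap. The kidney level was higher by 1.46 ± 0.22 and the spleen level lower by 2.08 ± 0.27 than the mean of the other 3 organs on the log2 scale (adjusted p = 0.000253 and 9.66e-05). Ccn2 had 106 and 71.8 in kidney, 74.0 and 63.2 in lung, 19.4 and 17.1 in spleen and 8.64 and 7.61 in liver. Kidney and lung overlapped, and liver was lower than the mean of the other organs by 2.17 ± 0.29 (adjusted p = 5.58e-05). The organ order of Ccn2 repair, kidney, lung, spleen and liver, differed from that of its RNA after cisplatin only in the place of kidney and lung.

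Amotl2 had its highest TS level in kidney, 73.8 and 82.9, and its lowest in spleen, 10.4 and 14.7, with lung at 44.7 and 53.4 and liver at 38.8 and 33.1. Adamts1 had 54.0 and 70.7 in kidney, 46.4 and 43.1 in lung, 48.1 and 42.9 in liver and 15.6 and 12.8 in spleen, where it was lower by 1.89 ± 0.20 than the mean of the other organs (adjusted p = 1.63e-05). Ajuba was the exception among the 8, since liver was highest, with 82.1 and 84.3 against 64.3 and 75.9 in kidney, 47.0 and 49.4 in lung and 27.5 and 24.7 in spleen. Its liver level was higher than the mean of the other organs by 1.30 ± 0.10 (adjusted p = 6.3e-07). The RNA of Ajuba in liver, 3.28 and 2.87 RPKM after cisplatin, was below that of kidney and lung.

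Tnfrsf12a had 92.0 and 122 in kidney, 76.6 and 99.0 in lung, 78.4 and 63.7 in spleen and 65.9 and 41.8 in liver. In the TMM-scaled edgeR fit the organs were not called different for it (fitted range of 0.53 on the log2 scale, adjusted p = 0.393). The RNA of Tnfrsf12a after cisplatin covered a far wider range, from 1.74 to 258 RPKM. Lats2 lay between 41.3 and 48.6 in all 8 libraries, and its call (range of 0.44, adjusted p = 0.0038) was lost when libraries were scaled by their size alone (range of 0.22, adjusted p = 0.163). That scaling moved the median of all genes in liver against the other organs from 0.11 to -0.11. Relative to that shift, the liver differences of Ccn2 and Ajuba kept their sign under both scalings, while the liver difference of Amotl2, 0.37 ± 0.13, was not called with library size alone. Called above the mean of the other organs were 5 of the 8 in kidney, where 14.5% of all genes were, 4 in liver (28.9%), 2 in lung (12.9%) and 0 in spleen (10.9%). Called below it were 5 in spleen (13.2%), 1 in liver (20.4%) and 0 in kidney (14.6%) and in lung (15.1%).

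Damage-seq addressed on which strand the crosslinks remained. The reads were far fewer, from 9 in liver for Tnfrsf12a to 868 in kidney for Lats2 per organ. Amotl2, Ajuba, Lats2 and Adamts1 had fewer crosslinks on the TS than on the NTS in kidney, liver and lung, and none of the 8 was called in spleen. Called lower on the TS were 4 of the 8 genes in kidney, liver and lung (edgeR), where 22.5%, 35.2% and 27.7% of all genes were, and 0 in spleen, where 13% were. In spleen 1 of the 8 had an unadjusted p under 0.05 and DESeq2 called 0. DESeq2 called 1 in kidney, 3 in liver and 2 in lung.

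In kidney Amotl2 had 53 and 63 damage reads on the TS and 217 and 134 on the NTS. Its TS share was 24.8% in kidney (95% Wilson interval 21.1 to 29.0), 17.7% in liver (11.8 to 25.8), 20.6% in lung (15.9 to 26.2) and 39.0% in spleen (28.8 to 50.1), where 46.0% of its GG sites lie on the TS. Intervals are for the sum of 2 libraries and cover counting error only. The log2 ratio of TS to NTS was -1.33 ± 0.24 in kidney, -1.97 ± 0.37 in liver and -1.71 ± 0.28 in lung, with adjusted p of 7.79e-06, 3.66e-06 and 3.89e-07. Lats2, with 49.9% of its GG sites on the TS, had TS shares of 38.2%, 31.6%, 32.5% and 39.0% in the order kidney, liver, lung and spleen, and its log2 ratios were -0.68 ± 0.16, -1.11 ± 0.20, -1.06 ± 0.17 and -0.61 ± 0.23, of which spleen missed the threshold (adjusted p = 0.0655).

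Ajuba had 61 and 60 TS and 141 and 81 NTS reads in kidney, with log2 ratios of -0.84 ± 0.26 in kidney, -1.52 ± 0.43 in liver and -0.87 ± 0.32 in lung. In spleen its strands were even, with 17 and 17 TS against 9 and 21 NTS reads. Adamts1 had log2 ratios of -1.12 ± 0.41, -1.95 ± 0.69 and -1.26 ± 0.45 in kidney, liver and lung, on 15 and 23, 5 and 1, and 8 and 19 TS reads. In kidney none of the 4 was called without the first library, and in that organ their ratios then lay between -0.86 and -0.43.

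Ccn1, Ccn2, Ankrd1 and Tnfrsf12a were called in no organ, and their depth allowed little. Ccn1 had 11 to 38 damage reads per organ, and its TS share of 31.6% in kidney (19.1 to 47.5) lay below the 54.0% of its GG sites, with a log2 ratio of -1.32 ± 0.77 (adjusted p = 0.239). Ccn2 had 12 to 47 reads, Tnfrsf12a 9 to 93 and Ankrd1 43 to 94. Ankrd1 had TS shares of 60.0%, 52.8%, 50.0% and 39.5% in kidney, liver, lung and spleen, and each interval held the 53.0% of its GG sites. Among the 8 genes Ankrd1 therefore had neither a called strand difference of repair nor one of damage in these libraries, at the lowest XR-seq reads of the 8.

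**Figure D4:**
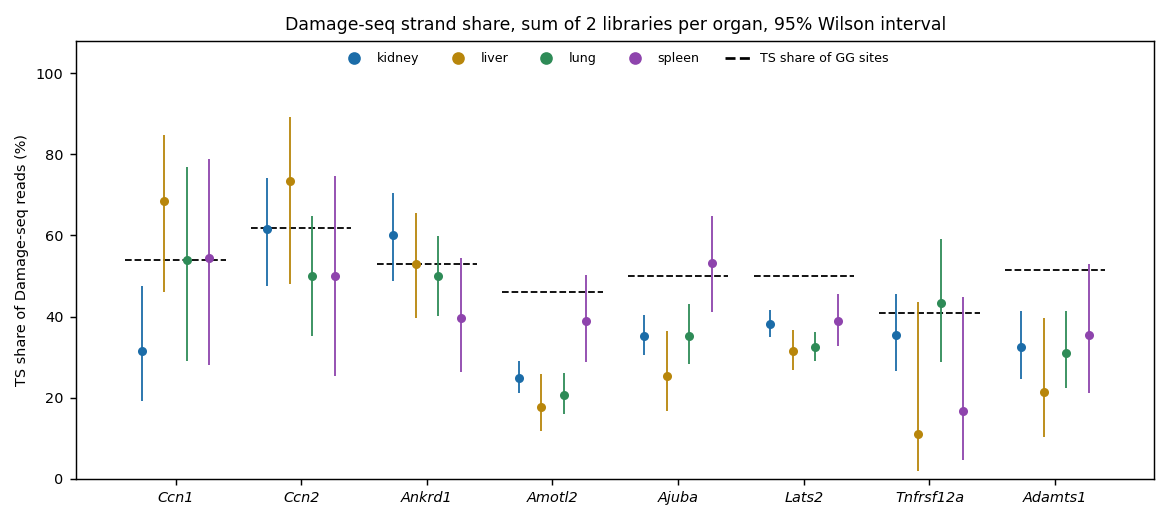
Share of Damage-seq reads on the TS for the 8 genes, from the sum of the 2 libraries of each organ, with 95% Wilson intervals. Dashes mark the share of GG sites on the TS. The intervals of Amotl2, Ajuba, Lats2 and Adamts1 in kidney, liver and lung lie below their dashes, and those of Ankrd1, Ccn2 and Tnfrsf12a hold theirs in every organ.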

How the data were processed

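RNA-seq, XR-seq and Damage-seq were deposited as raw read counts per gene, which the authors made as follows. Damage-seq and XR-seq reads were trimmed with cutadapt, aligned to mm10 with BWA, freed of duplicates with Picard, kept where GG stood at the expected place, and counted on the transcribed and non-transcribed strand of each gene. RNA reads were aligned with STAR and counted with featureCounts, and the study tested them with DESeq2. Versions are not given in the sources used here. Keeping only reads with GG favours GG-rich strands, hence the GG correction below.

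RNA counts were tested per organ with edgeR 4.0.16 in R 4.3.3 (TMM scaling, filterByExpr, glmQLFit, glmTreat at 0.4 log2, adjusted p under 0.05). The strand tests used 16502 genes (at least 20 reads in each assay, under 100000 bases, at least 10 GG on a strand), a block per library and library size times GG sites as offset. Organ differences were tested with 3 degrees of freedom over all organs, and as each organ minus the mean of the other 3. RPKM values use the exon length in GENCODE M21 and the summed reads on genes. TS shares have 95% Wilson intervals. DESeq2 1.42.0, other scalings and filters, and fits without a library were the alternatives. Of the lists' names, Tnfsf12 and Tnni3 were not matched. In each XR-seq and Damage-seq file 1 line that names no gene was left out. The steps were tested on simulated data.

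The 8 genes, the lists and the tests were chosen with earlier results of these data known. Named are the 8 genes and, from each other list and organ, the called gene with the largest rise and that with the largest fall. Other genes of the lists were named after their values were seen, as marked in the text. Likeness was the Pearson correlation for Ccn1, Ccn2 and Tnfrsf12a, with 5 genes each. Cdkn1a served as a check of the labels.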

Additional observations from a re-analysis of the deposited data

Results flagged for a closer look

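The kidney response of Ccn1 was larger than the mean response of the other 3 organs by 2.34 on the log2 scale (SE 0.34, edgeR adjusted p = 0.0163), and that of Adamts1 by 1.86 (SE 0.29, adjusted p = 0.025). They are listed because the kidney response differed from the mean of the other 3 organs in this test. The edgeR test over all organs together called neither gene. The Ccn1 response was 2.56 in kidney and 0.15, 0.42 and 0.19 in liver, lung and spleen, and the Adamts1 response 2.51 in kidney and 1.01, 0.87 and 0.19. Without 1 kidney library the differences lay between 2.09 and 2.65 for Ccn1 and between 1.74 and 1.96 for Adamts1, and the adjusted p between 0.054 and 0.159. Scaled by library size alone, the differences were 2.28 and 1.77, with adjusted p of 0.074 and 0.188. The Adamts1 difference was also not called without either lung cisplatin library (adjusted p = 0.064 and 0.08). With each library as a replicate both calls held.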

How the results depend on the processing

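Counts below are of the 8 genes called and, after a stroke, of all genes called. The response was called for 3/782 (kidney), 0/0 (liver), 0/383 (lung), 0/32 (spleen) and 0/40 (between organs). With no filter on low counts these became 6/1901, 1/155, 2/1075, 0/58 and 3/344. With the test against 0, kidney gave 5/1711 and lung 1/801. DESeq2 gave 2/189 in liver, 1 of the 8 in lung and 87 of all genes in spleen. With each library as a replicate lung gave 3/1607, 60 of all genes in spleen were called, and 3/621 between organs. Library size alone gave 246 of all genes in lung and 20 between organs. In 1 fit over all organs liver gave 2/518 and lung 71 of all genes. Leaving out 1 library gave 3 to 5/125 to 1929 in kidney, 1 to 2/22 to 2124 in liver, 0 to 331 of all genes in lung, 22 to 97 in spleen, and 0 to 3/8 to 210 between organs. The lowest kidney count came without cisplatin replicate 1 and the highest without control replicate 1, the highest liver count without cisplatin replicate 1, and lung gave 0 without either cisplatin library, where the lone sample was assumed to vary like the other groups. The cause of these changes was not tested.

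The replicate numbers are shared between groups, but nothing says that they mark a pair. Deviations of same-numbered samples correlated at 0.660 for kidney, 0.536 for liver, 0.0768 for lung and 0.128 for spleen. With the replicate block the response gave 6/3181, 2/809, 3/1914, 1/89 and 3/1779 in that order. The genes it added were Ccn2, Ankrd1 and Ajuba for kidney, Ccn2 and Tnfrsf12a for liver, Ccn2, Tnfrsf12a and Adamts1 for lung and Ccn2 for spleen. In the strand tests the library was part of the design, and without the block 3 of the 8 were called in Damage-seq of kidney, against 4, and 7 in XR-seq of spleen, against 6.

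For XR-seq, leaving out a liver library gave 3 of the 8 against 6, and 6065 to 6573 of all genes against 9768. For Damage-seq, DESeq2 gave 1/1095 against 4/3770 in kidney, 2/2692 against 4/4825 in lung and 960 against 2229 of all genes in spleen. Leaving out a library gave 0 to 4/103 to 2863 in kidney, 2 to 3/3263 to 4457 in liver, 2 to 3 of the 8 in lung and 0 to 1/301 to 832 in spleen.

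Signs turned only for differences that were not called. Lowest and highest log2 values with 1 library left out were, in RNA, -0.83 and 0.21 for Amotl2 in liver, -0.038 and 0.59 in kidney and, in lung, -0.0088 and 0.030 without a control and -0.15 and 0.15 without a cisplatin library, -0.41 and 0.37 for Ajuba in liver and -0.45 and 0.40 in lung, -0.16 and 0.079 for Lats2 in kidney and -1.02 and 0.22 in liver, and -0.18 and 0.53 for Ccn1 in liver and -0.045 and 0.32 in spleen, where the value without cisplatin replicate 2 was -0.015. The lung value of Amotl2 was -0.0013 with no filter and -0.0019 with the replicate block, and that of Ajuba -0.038 with the block. In Damage-seq they were -0.21 and 0.085 for Ccn1 in lung and -1.20 and 0.50 in spleen, -0.45 and 1.56 for Ccn2 in kidney, -0.69 and 5.68 in liver and -1.51 and 0.74 in lung, -0.0014 and 0.77 for Ankrd1 in kidney and -0.63 and 1.81 in liver, -0.46 and 0.52 for Tnfrsf12a in lung, and -0.30 and 0.92 for Ajuba in spleen. With no GG offset the lung values were 0.20 for Ccn1, 0.10 for Ccn2 and -0.42 for Tnfrsf12a, and the spleen value of Ccn1 was 0.20, or 0.0062 with no replicate block. In XR-seq no estimate was had for Ankrd1 in spleen without replicate 2, which left 0 reads.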
